A study of Mus musculus with 6 samples.

Results

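BiTS is a bispecific silencer of T cells that joins the inhibitory receptor LAG-3 to the T cell receptor (TCR). Its effect on all genes was compared with that of BiTS(mut), its mutated form. The comparison holds 4 of the 6 libraries of the series, chosen by treatment label: BiTS replicates 1 and 2 against BiTS(mut) replicates 1 and 2. By the numbers in their titles, libraries 2 and 3 form the first pair and libraries 5 and 6 the second. Each pair gives 1 difference, BiTS minus BiTS(mut). All libraries came from splenocyte cultures of OT-I mice, whose CD8 T cells carry 1 transgenic receptor for the SIINFEKL peptide of ovalbumin. The label gives naive primary CD8 T cells, stimulated for 48 h with SIINFEKL on antigen-presenting cells. BiTS, BiTS(mut) and isotype cultures all received the peptide, so the comparison is between activated cultures. The 2 isotype libraries (replicates 1 and 4) are given beside it as background. The labels describe neither the mutation nor the doses. They do not say whether replicates came from separate mice or cultures, so a p-value reflects no more than the spread between the libraries at hand.

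LAG-3 is an inhibitory receptor that appears on T cells after activation and dampens signalling from the TCR when it lies close to the receptor complex. TCR signalling runs through the kinase Lck, calcium and NFAT, Ras and AP-1, and NF-kB to cytokine genes such as Ifng, to cytotoxic genes such as Prf1 and to the cell cycle. An activated T cell also acts back on the antigen-presenting cell that shows it the peptide. Its cytokines and CD40 ligand license dendritic cells to mature, express costimulatory ligands and secrete cytokines of the interleukin 12 family and chemokines.

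Library totals ran from 10813123 to 15239077 gene counts. The label's cell type was checked on 8 CD8 T cell markers, whose summed level was 2193 and 2445 CPM (counts scaled to a common library size) in BiTS, 1926 and 2267 CPM in BiTS(mut) and 1825 and 2197 CPM in isotype. The first value of each such couple is from the first pair or set (title numbers 1 to 3) and the other from the second (4 to 6). Cd4 was at 0.519 CPM or less. The cultures were not T cells alone: 21 of 23 dendritic cell lineage markers had counts, Siglech and Clec4a4 being at 0. Their sum was 2765 and 1637 CPM in BiTS, 3192 and 1832 CPM in BiTS(mut) and 3579 and 1865 CPM in isotype. BiTS stood at 0.866 and 0.893 times BiTS(mut) for this sum in the 2 pairs, and at 1.139 and 1.079 times for the CD8 T cell sum. Some of these markers, such as Irf8 and Batf3, are also expressed by activated CD8 T cells, but Itgax (110 and 46.6 CPM in BiTS, 132 and 51.8 CPM in BiTS(mut)) and Xcr1 (23.7 and 9.80 CPM against 25.3 and 11.1 CPM) are typical of dendritic cells. The markers did not all fall. Clec9a (38.3 and 17.4 CPM against 39.96 and 14.4 CPM) was higher in BiTS in the second pair. Ppt1 (42.9 and 33.2 CPM against 39.6 and 27.3 CPM) was higher in both. Of the 16 tested lineage markers 8 were lower and 1 higher in both pairs. Summed macrophage and monocyte markers stood at 0.925 and 0.986 times BiTS(mut), B cell markers at 1.221 and 1.067, NK and innate lymphoid markers at 0.869 and 0.979 and CD4 and Treg markers at 0.995 and 1.055. In such bulk libraries fewer cells of a type and less RNA per cell cannot be told apart.

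Genes that were lower in BiTS outnumbered those that were higher. edgeR's quasi-likelihood test with a replicate block for the pair called 136 of 13996 tested genes at a Benjamini-Hochberg adjusted p under 0.05, which is 0.972% of those tested, with 98 lower (0.7%) and 38 higher (0.272%). All 136 had the same sign in both pairs, a property that the paired test favours. Most changes were small: the median absolute log2 fold change of called genes was 0.499, and 17 genes changed at least 2-fold, 15 lower and 2 higher. The median over all tested genes was 0.0005, and 56.57% of them had the same sign in both pairs. Of the 13996, 3958 were lower and 3959 higher in both pairs, the background for such counts of list members. Without the replicate block edgeR's test gave 0 called genes. At an unadjusted p under 0.05 there were then 76 genes, against 1183 in the paired test. DESeq2 called 51 with the block and 0 without. Scaling to the spike-in transcripts shifted the median of all tested genes to 0.18 and also called 0. Every list median below is on the TMM scale, to be read against the median of all genes. At that scaling the median was -0.18 for dendritic cell maturation genes, -0.50 for cytokines of antigen-presenting cells and 0.32 for the TCR complex. The medians of the cytotoxic, NF-kB, interferon gamma and TCR-induced transcription factor lists then lay above 0. With spike-in scaling all 136 called genes kept their sign, and the median log2 fold change was -0.396 for those called lower, against -0.562 on the TMM scale, and 0.598 for those called higher, against 0.421. Spike-ins took 3.769% and 5.143% of the counts in BiTS and 3.361% and 7.538% in BiTS(mut), so BiTS had the higher share in the first pair and the lower in the second, and BiTS(mut) replicate 2 had the highest of the 6 libraries. Nearly all calls thus rested on the pairing, and all were lost with spike-in scaling. Of the 67 called genes of the naming rule 2 were also called with neither filter nor block. When each of the 6 libraries was left out in turn, 12 of the 136 stayed called, among them Ifng, Il23a, Prf1, Il3, Ccl22, Selp, Cd200, Ctla2a, Cd83, Marcksl1 and Slc15a3.

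**Figure D1:**
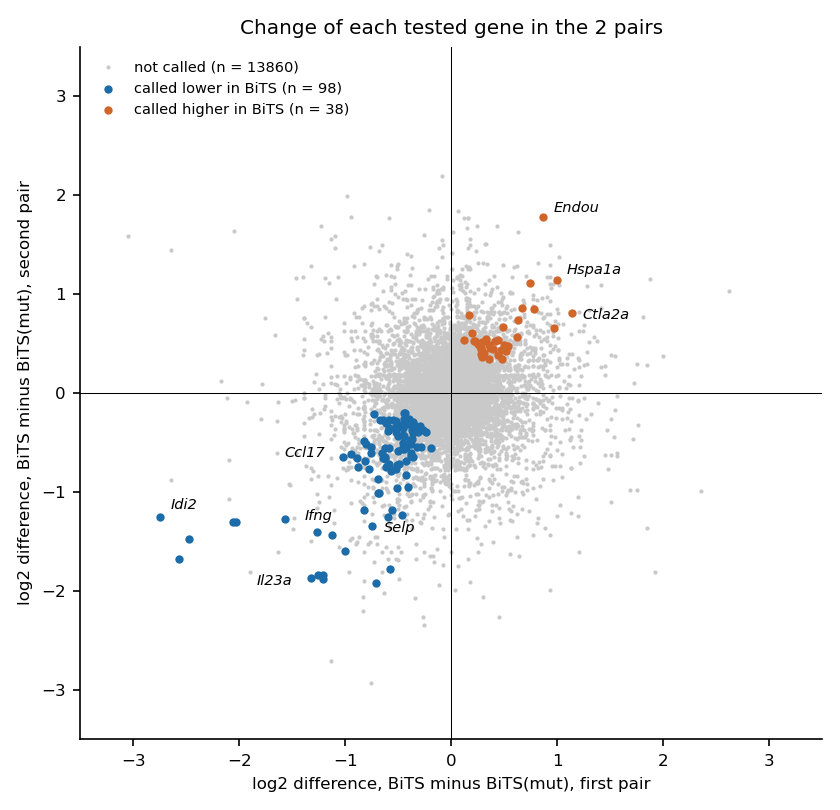
Log2 difference, BiTS minus BiTS(mut), of each of the 13996 tested genes in the first pair (x axis) and the second pair (y axis), from CPM with a prior of 2 counts. The 98 genes called lower (blue) lie at the lower left and the 38 called higher (orange) in the upper right, while genes that were not called (grey) surround the origin.

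The cytokine genes of activated T cells were led by Ifng, which encodes interferon gamma, the cytokine by which CD8 T cells activate macrophages and raise antigen presentation (chromosome 10, 118441047 to 118445892). Ifng was at 33.8 and 56.98 CPM in BiTS, 81.9 and 151 CPM in BiTS(mut) and 83.9 and 198 CPM in isotype. Both BiTS libraries lay below both BiTS(mut) libraries, and the level was higher in the second set in every treatment. The gene fell by 1.35 ± 0.10 on the log2 scale (adjusted p = 5.83e-14 by edgeR's quasi-likelihood test, the lowest of all genes), with -1.27 in the first pair and -1.41 in the second. Il3, which encodes a growth factor for blood progenitors, mast cells and basophils, was at 13.4 and 6.45 CPM in BiTS, 29.4 and 17.7 CPM in BiTS(mut) and 23.1 and 20.02 CPM in isotype. Il3 fell by 1.24 ± 0.16 on the log2 scale, again with no overlap between the groups. Ltb, which encodes the membrane ligand lymphotoxin beta, moved the other way and was at 141 and 182 CPM in BiTS, 108 and 133 CPM in BiTS(mut) and 89.1 and 134 CPM in isotype. It rose by 0.42 ± 0.09 on the log2 scale, and within each pair BiTS was the higher library.

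Other members of this list did not pass the test. Tnf was at 45.5 and 61.5 CPM in BiTS, 49.01 and 75.5 CPM in BiTS(mut) and 57.8 and 75.9 CPM in isotype (-0.20 ± 0.10). Csf2, the growth factor GM-CSF, was low at 0.667 and 0.853 CPM in BiTS, 1.62 and 2.14 CPM in BiTS(mut) and 1.66 and 3.67 CPM in isotype, with a log2 fold change of -1.30 ± 0.46 that did not pass (adjusted p = 0.246). Il2, the T cell growth factor, reached at most 1.04 CPM in the 4 libraries, where a change was not detectable at this depth. Of the 16 tested genes of the list, 2 fell and 1 rose (18.8%, against 0.972% of all tested genes called). The list's median was -0.16 (-0.11 and -0.24 in the 2 pairs) beside 0.0005 over all tested genes. The call of Ltb was lost without BiTS replicate 1 or either BiTS(mut) library (0.34 to 0.51).

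**Figure D2:**
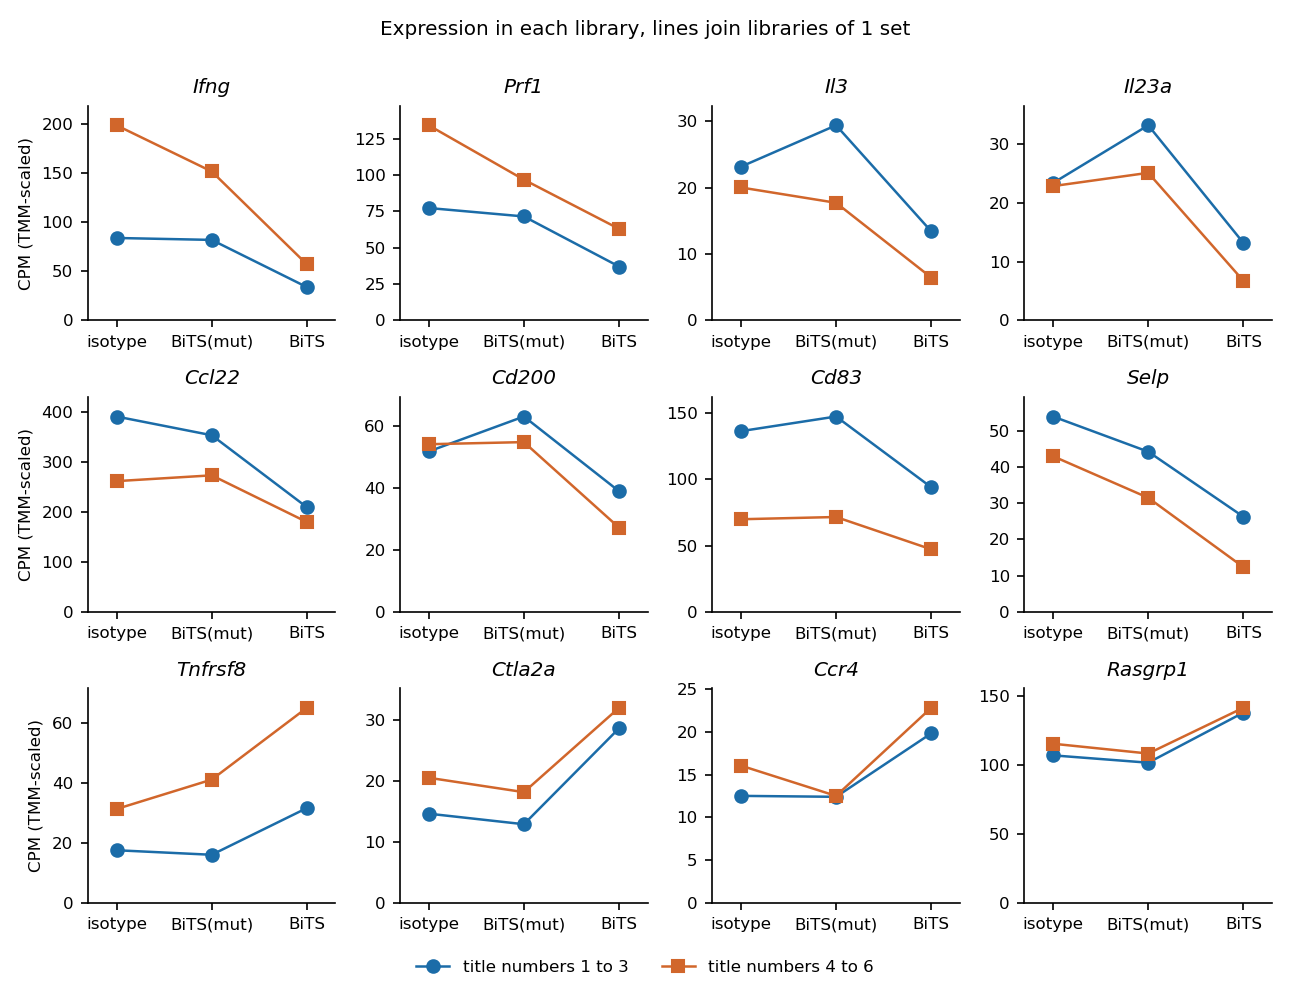
TMM-scaled CPM (y axes, from 0) of 12 called genes in each of the 6 libraries. Lines join the libraries of 1 set (title numbers 1 to 3 in blue, 4 to 6 in orange); for the first 8 genes the BiTS library is the lowest of its set, and for Tnfrsf8, Ctla2a, Ccr4 and Rasgrp1 the highest.

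Among the cytotoxic genes Prf1 and 3 serpins fell and Ctla2a rose. Prf1, which encodes perforin, the protein that opens the target membrane to granzymes, was at 37.03 and 62.95 CPM in BiTS, 71.5 and 96.8 CPM in BiTS(mut) and 77.3 and 134 CPM in isotype (chromosome 10, 61297836 to 61304263). It fell by 0.78 ± 0.10 on the log2 scale (adjusted p = 7.82e-07 by edgeR's quasi-likelihood test), and its groups did not overlap. Gzmb, which encodes the protease that perforin delivers, was at 2624 and 2065 CPM in BiTS, 2848 and 2500.1 CPM in BiTS(mut) and 2794 and 3058 CPM in isotype, and its log2 fold change of -0.19 ± 0.08 did not pass (adjusted p = 0.458). The levels of Gzmb were lower in BiTS within each pair, but BiTS replicate 1 lay above BiTS(mut) replicate 2. Gzmc, another granzyme gene and the lowest member of the list, named after its value was seen, had a log2 fold change of -0.79 ± 0.31 that did not pass (adjusted p = 0.361). Of the serpins in the list, which block proteases inside cells, 3 fell: Serpinb9b (-0.48 ± 0.11), Serpinb6b (-0.34 ± 0.08) and Serpinb9 (-0.31 ± 0.08). Serpinb9 is the inhibitor of granzyme B. These 3 genes lie on chromosome 13 in 1 cluster with Serpinb1a, a neutrophil elastase inhibitor that also fell (-0.50 ± 0.09), and close copies in the cluster may share reads.

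Ctla2a, which encodes a small protein related to the propeptide of cathepsin L that inhibits cysteine proteases, was the member that rose. It was at 28.6 and 31.95 CPM in BiTS, 12.9 and 18.1 CPM in BiTS(mut) and 14.6 and 20.5 CPM in isotype, so that both BiTS libraries lay above all 4 others. Ctla2a rose by 0.99 ± 0.13 on the log2 scale (adjusted p = 3.77e-06; 1.14 in the first pair and 0.81 in the second), and reads of its near copy Ctla2b may be split with it. Of the 22 tested genes of the list 4 fell and 1 rose (22.7%, against 0.972% of all tested genes called), with a median of -0.13 (-0.15 and -0.13). Klrc1, which encodes the inhibitory receptor NKG2A of NK cells and CD8 T cells, was at 8.52 and 6.92 CPM in BiTS, 15.9 and 11.04 CPM in BiTS(mut) and 16.8 and 15.98 CPM in isotype and fell by 0.80 ± 0.17 on the log2 scale. Calls were lost for Klrc1 without BiTS replicate 1 or BiTS(mut) replicate 1 (-0.80 to -0.59). Serpinb9b and Serpinb1a lost it without BiTS replicate 2 or either BiTS(mut) library (-0.53 to -0.37). Serpinb6b and Serpinb9 were no longer called without each of the 4 compared libraries in turn (-0.41 to -0.24). In DESeq2 with the block Serpinb9b and Klrc1 were not called. Serpinb9 also lost the call with the 5 CPM filter.

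Cytokines of antigen-presenting cells were lower in BiTS. Il23a, which encodes the p19 chain of interleukin 23, was at 13.2 and 6.73 CPM in BiTS, 33.2 and 25.1 CPM in BiTS(mut) and 23.4 and 22.9 CPM in isotype (chromosome 10, 128296140 to 128298084). It fell by 1.54 ± 0.15 on the log2 scale (adjusted p = 1.67e-09 by edgeR's quasi-likelihood test), with -1.32 in the first pair and -1.88 in the second, and both BiTS libraries lay below every other library. Il12b encodes the p40 chain that interleukins 12 and 23 share and was at 21.8 and 9.58 CPM in BiTS, 35.1 and 19.4 CPM in BiTS(mut) and 33.1 and 26.5 CPM in isotype. Its groups overlapped across pairs, since BiTS replicate 1 stood above BiTS(mut) replicate 2, while within each pair BiTS was lower (-0.80 ± 0.14). Il1b, the inflammatory cytokine interleukin 1 beta, was at 6.30 and 1.80 CPM in BiTS, 9.49 and 6.59 CPM in BiTS(mut) and 10.1 and 6.70 CPM in isotype and fell by 0.998 ± 0.24 on the log2 scale. All 10 tested genes of the list had a negative log2 fold change, 3 of them called (30%, against 0.7% of all tested genes called lower). In both pairs 8 of the 10 were lower and 0 higher. The median was -0.65 (-0.63 and -0.77). Il12b was no longer called without BiTS replicate 2 or BiTS(mut) replicate 1 (-0.71 to -0.58), nor was Il1b without BiTS replicate 2 or either BiTS(mut) library (-1.32 to -0.60). Il1b moved with single libraries, to -1.84 without BiTS replicate 1 and -0.60 without BiTS replicate 2. By DESeq2 with the replicate block Il1b had no adjusted p. Il1b also lost the call with the 5 CPM filter.

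Most chemokine genes followed the same direction. Ccl22, a chemokine of mature dendritic cells that attracts cells with the receptor Ccr4, was at 209 and 179 CPM in BiTS, 354 and 273 CPM in BiTS(mut) and 391 and 262 CPM in isotype. It fell by 0.68 ± 0.09 on the log2 scale (adjusted p = 9.73e-07), with no overlap between the groups. Ccl17, the other ligand of Ccr4, lies 58753 bases from Ccl22 on chromosome 8 and was at 13.2 and 16.9 CPM in BiTS, 26.9 and 26.5 CPM in BiTS(mut) and 33.6 and 26.999 CPM in isotype (-0.84 ± 0.14). The receptor gene Ccr4 itself rose, from 12.4 and 12.5 CPM in BiTS(mut) to 19.8 and 22.8 CPM in BiTS (0.77 ± 0.15), with isotype at 12.5 and 16.1 CPM. Xcl1, a chemokine that activated CD8 T cells make and that Xcr1 on cross-presenting dendritic cells receives, was at 8.89 and 7.96 CPM in BiTS, 14.5 and 14.7 CPM in BiTS(mut) and 15.7 and 14.1 CPM in isotype (-0.79 ± 0.16). Cxcl16, the membrane-bound ligand of Cxcr6, was at 131 and 74.2 CPM in BiTS, 193 and 89.5 CPM in BiTS(mut) and 196 and 93.9 CPM in isotype (-0.42 ± 0.09). Of the 12 tested chemokines 4 fell and 0 rose by edgeR's quasi-likelihood test (33.3%, against 0.7% of all tested genes called lower). Of the 12, 10 had a negative log2 fold change, and the highest was Ccl27a at 0.22. In both pairs 9 were lower and 1 higher. The list's median was -0.43 (-0.46 and -0.44). Ccr6, the receptor of Ccl20, was also called lower, from 2 and 8 counts in BiTS against 24 and 29 in BiTS(mut), too few for a stable fold. The call did not hold for Ccl17 without BiTS replicate 1 (-0.57). Ccr4 lost it without BiTS(mut) replicate 2 (0.64). Cxcl16 and Ccr6 were no longer called without BiTS replicate 1 or either BiTS(mut) library (-2.23 to -0.28). Xcl1 lost the call without BiTS replicate 2 or either BiTS(mut) library (-0.87 to -0.71). Cxcl16 then stood at -0.28 without BiTS replicate 1, and Ccr6 at -3.43 without BiTS replicate 2. With DESeq2 and the replicate block Ccr4 and Xcl1 were not called, and Ccr6 had no adjusted p.

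The list with the highest share of called genes was dendritic cell maturation and costimulation. Of its 34 tested members 16 fell (47.1%, against 0.7% of all tested genes called lower) and 0 rose by edgeR's quasi-likelihood test. In both pairs 27 were lower, and the median was -0.37 (-0.35 and -0.43). The lists were chosen with earlier results of these data known, so this rank is a description and no test. Some of the 16 also count in the chemokine, cytokine, cytotoxic and TCR-induced lists. Cd40, the receptor through which T cells license antigen-presenting cells, was at 15.9 and 8.34 CPM in BiTS, 24.2 and 20.2 CPM in BiTS(mut) and 27.2 and 16.5 CPM in isotype. It fell by 0.89 ± 0.15 on the log2 scale and was lower within each pair, with BiTS replicate 2 the lowest library. Cd83, a surface protein of mature dendritic cells and of activated lymphocytes, was at 94.1 and 47.1 CPM in BiTS, 148 and 71.6 CPM in BiTS(mut) and 137 and 69.9 CPM in isotype and fell by 0.63 ± 0.09 on the log2 scale (adjusted p = 7.91e-06). Cd86, a ligand of the costimulatory receptor CD28, was at 30.2 and 11.4 CPM in BiTS, 44.5 and 19.7 CPM in BiTS(mut) and 43.96 and 18.9 CPM in isotype (-0.64 ± 0.13).

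Ligands of inhibitory receptors in the same list fell too. Cd200, whose receptor restrains myeloid cells, was at 38.9 and 27.1 CPM in BiTS, 63.05 and 54.8 CPM in BiTS(mut) and 51.8 and 54.1 CPM in isotype and fell by 0.83 ± 0.11 on the log2 scale (adjusted p = 1.92e-06), with both BiTS libraries below all others. Cd274, which encodes PD-L1, the ligand of PD-1, was at 96.8 and 42.9 CPM in BiTS, 126 and 66.8 CPM in BiTS(mut) and 139.9 and 61.9 CPM in isotype (-0.50 ± 0.09). Cytoskeletal genes of mature dendritic cells followed: Fscn1, the actin-bundling protein of dendrites, at -0.65 ± 0.15, Marcksl1 at -0.59 ± 0.09 and Marcks, both actin-binding substrates of protein kinase C, at -0.40 ± 0.09. The remaining called members were Ccl22, Ccl17, Il12b, Serpinb6b and Serpinb9, given above, and also Apol7c (-1.18 ± 0.24), Nudt17 (-0.84 ± 0.18) and Cacnb3 (-0.35 ± 0.09). Several of the 16, such as Cd200, Cd83 and Cd274, are also made by activated T cells, so the list does not assign the change to a cell type.

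For the lineage markers of dendritic cells no member passed the test. Of 16 tested, 0 were called by edgeR's quasi-likelihood test. With 0.972% of all tested genes called, a count of 0 in a list of this size gives no result about its members. The median of the lineage markers was -0.08 (-0.14 and -0.02), beside -0.37 for the maturation list. For 13 tested macrophage and monocyte markers the count was also 0 and the median -0.03 (-0.02 and 0.06). The summed lineage markers stood at 0.866 and 0.893 times BiTS(mut), as above, and their part in the change of the maturation genes was not tested. The level of called lower genes also went with the set: 76 of the 98 (77.6%) were higher in the first set than in the second in all 3 treatments, against 13 of the 38 called higher (34.2%) and 34.4% of all tested genes. Among the maturation genes the calls were lost for Cd40 without BiTS(mut) replicate 2 (-0.65). Cd274, Apol7c and Nudt17 lost it without BiTS replicate 2 or BiTS(mut) replicate 2 (-0.92 to -0.38). Cd86 and Marcks were no longer called without BiTS replicate 2 or either BiTS(mut) library (-0.72 to -0.28). Fscn1 and Cacnb3 lost the call without each of the 4 compared libraries in turn (-0.73 to -0.29). Single libraries moved Apol7c to -1.85 without BiTS(mut) replicate 1, Apol7c to -0.78 without BiTS(mut) replicate 2 and Nudt17 to -0.55 without BiTS(mut) replicate 2. In DESeq2 with the block Fscn1, Marcks and Nudt17 were not called, and Apol7c had no adjusted p.

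**Figure D3:**
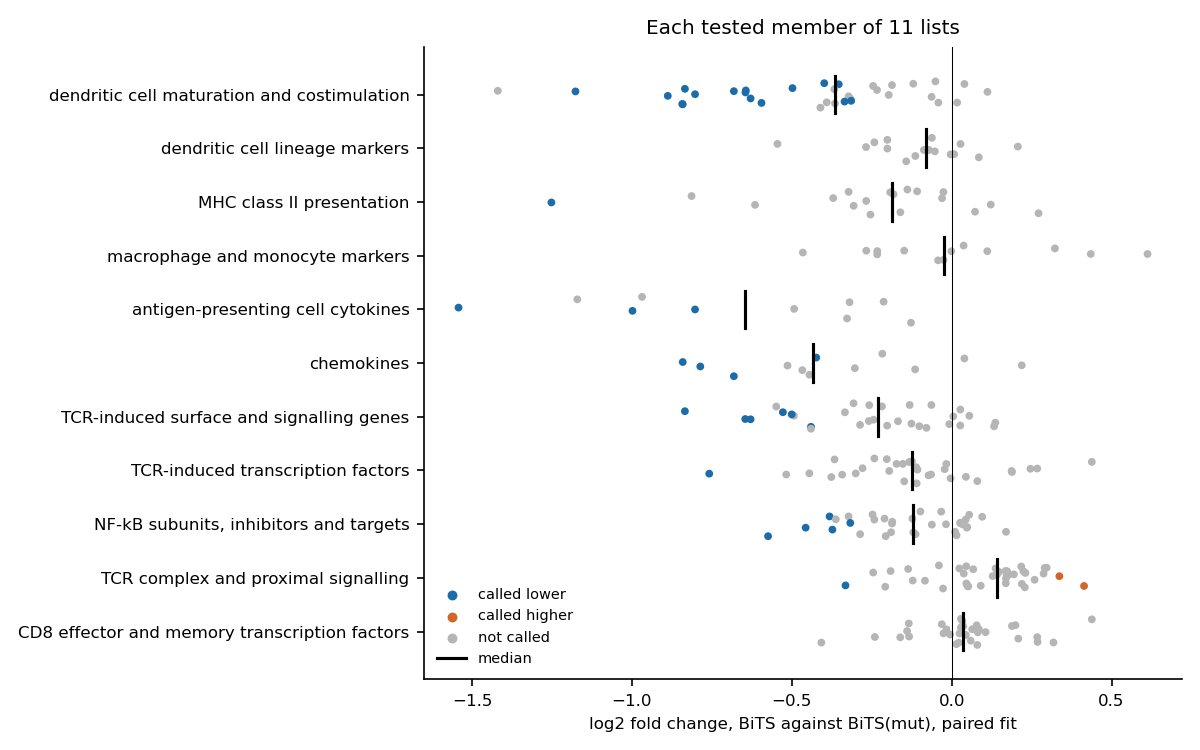
Log2 fold change, BiTS against BiTS(mut) in the paired test (x axis), of every tested member of 11 lists. Each point is 1 gene, coloured by its call, and the black bar is the list's median; the bar lies at -0.37 for dendritic cell maturation, -0.08 for dendritic cell lineage markers and 0.14 for the TCR complex.

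The list for the TCR complex and its first signalling steps had 39 tested genes. Of these 2 rose and 1 fell (7.69% called, against 0.972% of all tested genes). In both pairs 24 were higher and 7 lower, beside 3959 and 3958 of all 13996 tested genes. The list's median was 0.14 (0.12 and 0.14). Rasgrp1, the exchange factor that links diacylglycerol to Ras, was at 138 and 141 CPM in BiTS, 102 and 108 CPM in BiTS(mut) and 107 and 115 CPM in isotype, with both BiTS libraries above all others (0.41 ± 0.08). Ptpn22, a phosphatase that switches off Lck and its targets, was at 393 and 292 CPM in BiTS, 324 and 221 CPM in BiTS(mut) and 302 and 198 CPM in isotype (0.34 ± 0.08). Cd5, an inhibitory coreceptor whose level follows TCR signal strength in thymocytes, was at 156 and 123 CPM in BiTS, 195 and 156 CPM in BiTS(mut) and 172 and 164 CPM in isotype and fell by 0.33 ± 0.09 on the log2 scale. Cd8a, the coreceptor chain, was at 260.4 and 371 CPM in BiTS, 193 and 336 CPM in BiTS(mut) and 193 and 314 CPM in isotype. Its log2 fold change of 0.29 ± 0.08 did not pass (adjusted p = 0.0946), nor did that of Cd3e (0.17 ± 0.08). Both are members of the summed CD8 T cell markers, which stood at 1.139 and 1.079 times BiTS(mut), and the part of that sum in the values of this list was not tested.

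Among 30 surface and signalling genes that the TCR induces, 6 fell and 0 rose by edgeR's quasi-likelihood test (20%, against 0.7% of all tested genes called lower), and 20 were lower and 3 higher in both pairs, with a median of -0.23 (-0.25 and -0.15). Beside Cd200 and Cd83 these were Tagap, which encodes a GTPase-activating protein, and Rgs1, Rgs2 and Rgs16, which shorten signals from G protein-coupled receptors. Tagap was at 71.3 and 58.1 CPM in BiTS, 91.9 and 91.3 CPM in BiTS(mut) and 102 and 98.1 CPM in isotype (-0.50 ± 0.09), with both BiTS libraries below all others. Rgs16 was at 15.6 and 14.98 CPM in BiTS, 24.2 and 23.8 CPM in BiTS(mut) and 20.3 and 27.5 CPM in isotype (-0.65 ± 0.14), Rgs1 fell by 0.44 ± 0.09 on the log2 scale and Rgs2 fell by 0.53 ± 0.13 on the log2 scale. Rgs1 and Rgs2 lie 238134 bases apart on chromosome 1.

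Of 31 transcription factors that the TCR induces, 21 were lower and 6 higher in both pairs, and 1 fell (3.23%, against 0.7% of all tested genes called lower). It was Egr2, which limits T cell activation and is linked to anergy. Egr2 was at 5.18 and 5.97 CPM in BiTS, 7.47 and 11.8 CPM in BiTS(mut) and 9.62 and 11.02 CPM in isotype (-0.76 ± 0.20, adjusted p = 0.0454). The other early or activation genes listed for naming did not pass. Nr4a1, a reporter of TCR signals, was at -0.07 ± 0.08, Irf4 at -0.17 ± 0.08, Myc at 0.04 ± 0.08, Cd69 at 0.00 ± 0.10, Il2ra at 0.06 ± 0.08 and Tnfrsf9 at -0.13 ± 0.08. Tbx21, which encodes the Th1 and effector factor T-bet, was higher in BiTS in the first pair (0.28) and lower in the second (-0.38). Lag3, one target of BiTS, was at 543 and 634 CPM in BiTS, 589.7 and 655 CPM in BiTS(mut) and 543 and 566 CPM in isotype (-0.08 ± 0.08), and Pdcd1, which encodes PD-1, was at -0.19 ± 0.12. Calcium and NFAT genes (28 tested, median 0.07) and CD8 effector and memory transcription factors (32 tested, median 0.03) had 0 called genes by edgeR's quasi-likelihood test. With 0.972% of all tested genes called, a count of 0 in lists of this size gives no result about their members. The calls in these TCR lists were lost for Tagap without BiTS replicate 2 or BiTS(mut) replicate 2 (-0.43 to -0.37). Rgs2 lost it without BiTS replicate 1 or either BiTS(mut) library (-0.64 to -0.28). Rasgrp1 was no longer called without BiTS replicate 1 or either BiTS(mut) library (0.39 to 0.42). Rgs1 and Rgs16 lost the call without BiTS replicate 2 or either BiTS(mut) library (-0.76 to -0.34). Cd5 and Egr2 were not called without each of the 4 compared libraries in turn (-0.97 to -0.26). Ptpn22 lost it without each of the 4 compared libraries in turn (0.26 to 0.42). Rgs2 stood at -0.28 without BiTS(mut) replicate 1. By DESeq2 with the replicate block Cd5, Rgs2, Rgs16 and Egr2 were not called. Egr2 also lost the call in limma-voom with the block and with scaling by totals, and Cd5 and Egr2 with the 5 CPM filter.

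NF-kB is held in the cytoplasm by inhibitor proteins and, once released, induces inflammatory genes and its own inhibitors. Of 33 subunits, inhibitors and targets, 5 fell and 0 rose by edgeR's quasi-likelihood test (15.2%, against 0.7% of all tested genes called lower). The list's median was -0.12 (-0.17 and -0.06). The 5 were the subunit gene Nfkb2 (-0.32 ± 0.08), the inhibitor genes Nfkbib (-0.57 ± 0.09) and Nfkbie (-0.46 ± 0.10), the survival gene Bcl2a1b (-0.38 ± 0.09) and the adhesion ligand Icam1 (-0.37 ± 0.08). Nfkb2 was at 298 and 233 CPM in BiTS, 359 and 301 CPM in BiTS(mut) and 333 and 281 CPM in isotype. Nfkbie was at 36.1 and 38.2 CPM in BiTS, 51.8 and 50.1 CPM in BiTS(mut) and 52.9 and 46.01 CPM in isotype, with both BiTS libraries below all others. Nfkbib overlaps exons of Sirt2 on the opposite strand and Bcl2a1b has near copies, so reads may be shared. Calls were not kept for Nfkbib without BiTS(mut) replicate 1 (-0.47). Nfkbie lost it without BiTS replicate 1 or either BiTS(mut) library (-0.46 to -0.35). Nfkb2, Bcl2a1b and Icam1 were no longer called without each of the 4 compared libraries in turn (-0.41 to -0.26). With DESeq2 and the replicate block Nfkbie and Bcl2a1b were not called. Nfkb2 also lost the call with the 5 CPM filter.

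Promoters were read for the genes that were called, to see whether sites of the factors below the TCR stand near their starts. The lines give the 150 bases before the RefSeq start, 5′ to 3′ on the gene's strand, for 2 leading lower genes, for 2 lower genes of the NF-kB list and for 2 of the leading higher genes, a choice made after their values were seen. Capitals mark matches to any of 10 motifs on either strand: the NF-kB consensus, GAS (TTCNNNGAA), AP-1 (TGANTCA), NFAT (GGAAAA), E-box (CACGTG), CRE (TGACGTCA), ISRE core (GAAANNGAA), T-box (TCACACC), CARE (TGATGNAA) and the serum response element.
Ifng: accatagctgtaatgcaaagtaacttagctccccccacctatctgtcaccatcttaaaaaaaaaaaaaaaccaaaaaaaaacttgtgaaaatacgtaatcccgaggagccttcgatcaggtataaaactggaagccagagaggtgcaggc
Ccl22: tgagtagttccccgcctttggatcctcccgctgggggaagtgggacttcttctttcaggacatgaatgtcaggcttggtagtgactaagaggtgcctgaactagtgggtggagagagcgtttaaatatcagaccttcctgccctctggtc
Nfkb2: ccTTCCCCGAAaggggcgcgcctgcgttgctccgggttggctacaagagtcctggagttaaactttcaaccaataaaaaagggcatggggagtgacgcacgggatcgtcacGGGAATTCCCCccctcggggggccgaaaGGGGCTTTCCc
Nfkbie: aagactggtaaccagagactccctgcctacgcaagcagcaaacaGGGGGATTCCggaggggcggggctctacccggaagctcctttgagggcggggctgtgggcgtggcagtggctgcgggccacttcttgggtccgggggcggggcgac
Tnfrsf8: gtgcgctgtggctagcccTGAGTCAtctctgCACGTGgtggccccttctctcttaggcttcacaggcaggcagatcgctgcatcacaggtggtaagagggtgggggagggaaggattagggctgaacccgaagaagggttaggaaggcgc
Ctla2a: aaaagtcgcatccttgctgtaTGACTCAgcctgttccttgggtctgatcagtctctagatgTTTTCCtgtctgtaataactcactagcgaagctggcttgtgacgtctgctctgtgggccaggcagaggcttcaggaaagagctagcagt
In GRCm38 these are chr10:118440896-118441045 on the plus strand (Ifng), chr8:94745534-94745683 on the plus strand (Ccl22), chr19:46304587-46304736 on the plus strand (Nfkb2), chr17:45555550-45555699 on the plus strand (Nfkbie), chr4:145315165-145315314 on the minus strand (Tnfrsf8) and chr13:60936626-60936775 on the minus strand (Ctla2a). The Ifng and Ccl22 windows of 150 bases held none of these letter strings. In Nfkb2 a GAS match lies near the far end, and NF-kB matches, 2 of them overlapping, lie closest to the start, while Nfkbie holds 1 NF-kB match. The windows of Tnfrsf8 and Ctla2a each hold an AP-1 match, followed by an E-box in Tnfrsf8 and an NFAT match in Ctla2a. Over windows of 300 bases that run past the start, used for the shares given next, Ifng also holds a GAS match, Ctla2a a GAS match, Nfkbie an AP-1 match and Tnfrsf8 an NF-kB match, while Ccl22 holds none of the 10. The other called genes of the NF-kB list, Nfkbib, Bcl2a1b and Icam1, held no NF-kB match over these 300 bases. Tnfrsf8 and Ctla2a were among only 4 of 33 higher promoters with an AP-1 match. The printed windows are thus not typical of their groups. Il23a, Cd83 and Cd40 had no entry.

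The shares of promoters with each motif were read over 300 bases for 76 called lower, 33 called higher and all 9916 tested genes with a promoter. The NF-kB consensus stood in 15.8% of lower (95% Wilson interval 9.27 to 25.6), 18.2% of higher (8.61 to 34.4) and 10.2% of all promoters. AP-1 stood in 9.21% (4.53 to 17.8), 12.1% (4.82 to 27.3) and 4.66%, and GAS in 11.8% (6.36 to 21), 12.1% (4.82 to 27.3) and 6.81%. NFAT stood in 22.4%, 18.2% and 20.3%, and the ISRE core in 10.5%, 0.0% and 7.14%. For CRE the shares were 1.32%, 0.0% and 3.33%, and for the E-box 9.21%, 12.1% and 10.1%. For the T-box they were 5.26%, 3.03% and 3.42%, for CARE 5.26%, 9.09% and 2.20%, and for the serum response element 2.63%, 3.03% and 1.22%. Lower and higher genes held NF-kB, AP-1 and GAS strings at similar shares, within each other's intervals. Against all promoters, the interval of the higher genes lay above the share for AP-1 and for CARE (3.14 to 23.6). These rest on 4 and 3 promoters, and they depended on the window. Over only the 250 bases before the start, the CARE interval of higher genes (1.68 to 19.6) spanned the share of all promoters (1.95%). For AP-1 the higher genes stayed above. The lower limits of the called lower genes then also exceeded all promoters for AP-1 (4.53 against 4.02%), GAS (6.36 against 5.85%) and CARE (2.07 against 1.95%). No difference among the 10 motifs was tested.

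Of 33 genes that interferon gamma induces, 3 fell and 0 rose by edgeR's quasi-likelihood test (9.09%, against 0.7% of all tested genes called lower), and the median was -0.12 (-0.07 and -0.13). The 3 were Cd274 and Icam1, given above, and Ciita, which switches on MHC class II genes, at 4.07 and 1.61 CPM in BiTS, 8.32 and 5.19 CPM in BiTS(mut) and 9.70 and 5.23 CPM in isotype. Ciita fell by 1.25 ± 0.25 on the log2 scale, overlaps exons of Dexi on the opposite strand, and was no longer called without BiTS replicate 2 or either BiTS(mut) library (-1.48 to -1.07). MHC class II presentation genes (18 tested, median -0.19) had Ciita as the only called member (5.56%, against 0.7% of all tested genes called lower). Type I interferon response genes (29 tested, median -0.11) and MHC class I genes (23 tested, median -0.03) had 0 called by edgeR's quasi-likelihood test. Since 0.972% of all tested genes were called, this count gives no result about the members of such lists. Ifngr1, the ligand-binding chain of the interferon gamma receptor, was at 181 and 163 CPM in BiTS, 149 and 120.01 CPM in BiTS(mut) and 157 and 114 CPM in isotype and rose by 0.36 ± 0.09 on the log2 scale. Its call was lost without BiTS replicate 2 or either BiTS(mut) library (0.25 to 0.37). In DESeq2 with the block Ifngr1 was not called, and Ciita had no adjusted p.

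Adhesion and migration genes changed in both directions. Selp, which encodes P-selectin, was at 26.3 and 12.3 CPM in BiTS, 44.3 and 31.5 CPM in BiTS(mut) and 54.1 and 43.1 CPM in isotype and fell by 0.99 ± 0.13 on the log2 scale (adjusted p = 1.92e-06 by edgeR's quasi-likelihood test). The Selp groups did not overlap, and in each set the order was isotype, BiTS(mut), BiTS from high to low. Itgb7, the integrin chain for homing to the gut, was at 328 and 345 CPM in BiTS, 269 and 266 CPM in BiTS(mut) and 248 and 258 CPM in isotype, with both BiTS libraries above all others (0.33 ± 0.08). Of the 34 tested genes of the list 3 fell and 1 rose (11.8%, against 0.972% of all tested genes called), with a median of -0.08 (-0.16 and 0.05).

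In the list of RGS, GTPase regulator and cytoskeleton genes 5 of 39 fell (12.8%, against 0.7% of all tested genes called lower) and 0 rose. The list's median was -0.03 (-0.03 and 0.004). These 5 were Tagap, Rgs1, Rgs2, Rgs16 and Fscn1, given above. Vcl (-0.68 ± 0.17), which encodes the cytoskeletal protein vinculin, and Dlc1 (-0.78 ± 0.17), which encodes a GTPase-activating protein, also fell but stand in no list. In the list of naive and memory genes, Dapl1 fell, from 63.6 and 107 CPM in BiTS(mut) to 44.9 and 71.2 CPM in BiTS (-0.54 ± 0.09) and so did Actn1, an alpha-actinin (-0.36 ± 0.08). Treml2, a TREM-like receptor, rose in the same list, from 142 and 278 to 197 and 352 CPM (0.41 ± 0.09), and the median of its 26 genes was 0.02. Calls were not retained for Dlc1 without BiTS replicate 1 or BiTS(mut) replicate 1 (-0.78 to -0.64). Dapl1 lost it without either BiTS(mut) library (-0.56 to -0.52). Vcl was no longer called without BiTS replicate 1 or either BiTS(mut) library (-0.73 to -0.45). Treml2 lost the call without BiTS replicate 2 or either BiTS(mut) library (0.29 to 0.54). Actn1 was not called without each of the 4 compared libraries in turn (-0.44 to -0.26). Itgb7 lost it without each of the 4 compared libraries in turn (0.29 to 0.38). Vcl stood at -0.45 without BiTS replicate 1. By DESeq2 with the replicate block Vcl and Dlc1 were not called. Vcl also lost the call with the 5 CPM filter.

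Stress and metabolic lists held called genes in both directions. Of 21 cytosolic chaperones the inducible HSP70 genes Hspa1a and Hspa1b rose (9.52%, against 0.272% of all tested genes called higher), with a list median of 0.03. Hspa1a was at 92.2 and 13.7 CPM in BiTS, 46.2 and 6.10 CPM in BiTS(mut) and 23.3 and 7.35 CPM in isotype (1.02 ± 0.14), and Hspa1b at 87.3 and 15.6 CPM in BiTS, 52.1 and 7.17 CPM in BiTS(mut) and 25.6 and 8.82 CPM in isotype (0.84 ± 0.14). BiTS replicate 1 was the highest library for both, and the first set lay above the second in every treatment. The genes are near-identical neighbours 9951 bases apart whose reads the counting could split. Of 37 glycolysis and HIF target genes 3 rose and 0 fell (8.11%, against the same 0.272%): Kdm3a (0.36 ± 0.08), Pfkm (0.37 ± 0.09) and Pdk1 (0.33 ± 0.09). Kdm3a is a histone demethylase induced by hypoxia, Pfkm a phosphofructokinase and Pdk1 a kinase that holds pyruvate back from mitochondria; the list's median was 0.06 (-0.001 and 0.10).

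Among 31 ATF4 targets, Trib3, a stress-induced pseudokinase, rose (0.37 ± 0.09) and Slc7a11, the cystine transporter, fell (-0.68 ± 0.15). They are 6.45% of the list, against 0.972% of all tested genes called. The metallothionein Mt2 rose from 46.2 and 43.2 to 52.96 and 65.6 CPM (0.40 ± 0.10), with isotype at 32.2 and 31.96 CPM. It was the only called gene of 17 in its list (5.88%, against 0.272% of all tested genes called higher). Calls were lost for Hspa1a without BiTS replicate 1 (0.74). Hspa1b lost it without BiTS replicate 1 or BiTS(mut) replicate 2 (0.61 to 0.68). Slc7a11 was no longer called without BiTS replicate 1 or either BiTS(mut) library (-0.85 to -0.57). Pfkm, Pdk1, Trib3 and Mt2 lost the call without BiTS replicate 2 or either BiTS(mut) library (0.15 to 0.54). Kdm3a was not called without each of the 4 compared libraries in turn (0.30 to 0.42). Leaving out 1 library moved Hspa1b to 1.38 without BiTS(mut) replicate 1, Pfkm to 0.24 without BiTS replicate 2, Pdk1 to 0.52 without BiTS replicate 1, Pdk1 to 0.15 without BiTS replicate 2, Pdk1 to 0.21 without BiTS(mut) replicate 2 and Mt2 to 0.22 without BiTS replicate 2. With DESeq2 and the replicate block Hspa1a, Hspa1b, Pfkm, Pdk1, Trib3, Slc7a11 and Mt2 were not called. Pdk1 and Mt2 also lost the call with scaling by totals and with the 5 CPM filter, and Trib3 and Mt2 with no filter.

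In the lists of growth and division genes 0 members were called by edgeR's quasi-likelihood test; with 0.972% of all tested genes called, lists of this size give no result about their members. They are ribosome biogenesis and MYC targets (37 tested, median -0.07), ribosomal proteins (44 tested, 0.03), DNA replication (42 tested, -0.01), mitosis (39 tested, 0.02) and replication-dependent histones (29 tested, 0.06). The same count was found for oxidative phosphorylation (33 tested, -0.02), mitochondrially encoded genes (13 tested, 0.04), sterol and fatty acid synthesis (36 tested, -0.03), the unfolded protein response (24 tested, -0.03) and p53 targets (26 tested, -0.09). Ribosome biogenesis had a median of 0.07 in the first pair and -0.19 in the second, so the pairs did not share a direction. Mki67, a marker of cycling cells, was at 0.12 ± 0.08. Ccnd2, a D-type cyclin that mitogens induce, fell (535 and 465 CPM in BiTS, 659 and 584 CPM in BiTS(mut) and 689 and 569.9 CPM in isotype; -0.31 ± 0.08), but was not called without each of the 4 compared libraries in turn (-0.34 to -0.28). For genes at 5 to 20 CPM the median standard error was 0.172, and for those over 100 CPM 0.084, which sets the size of change that could be called.

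**Figure D4:**
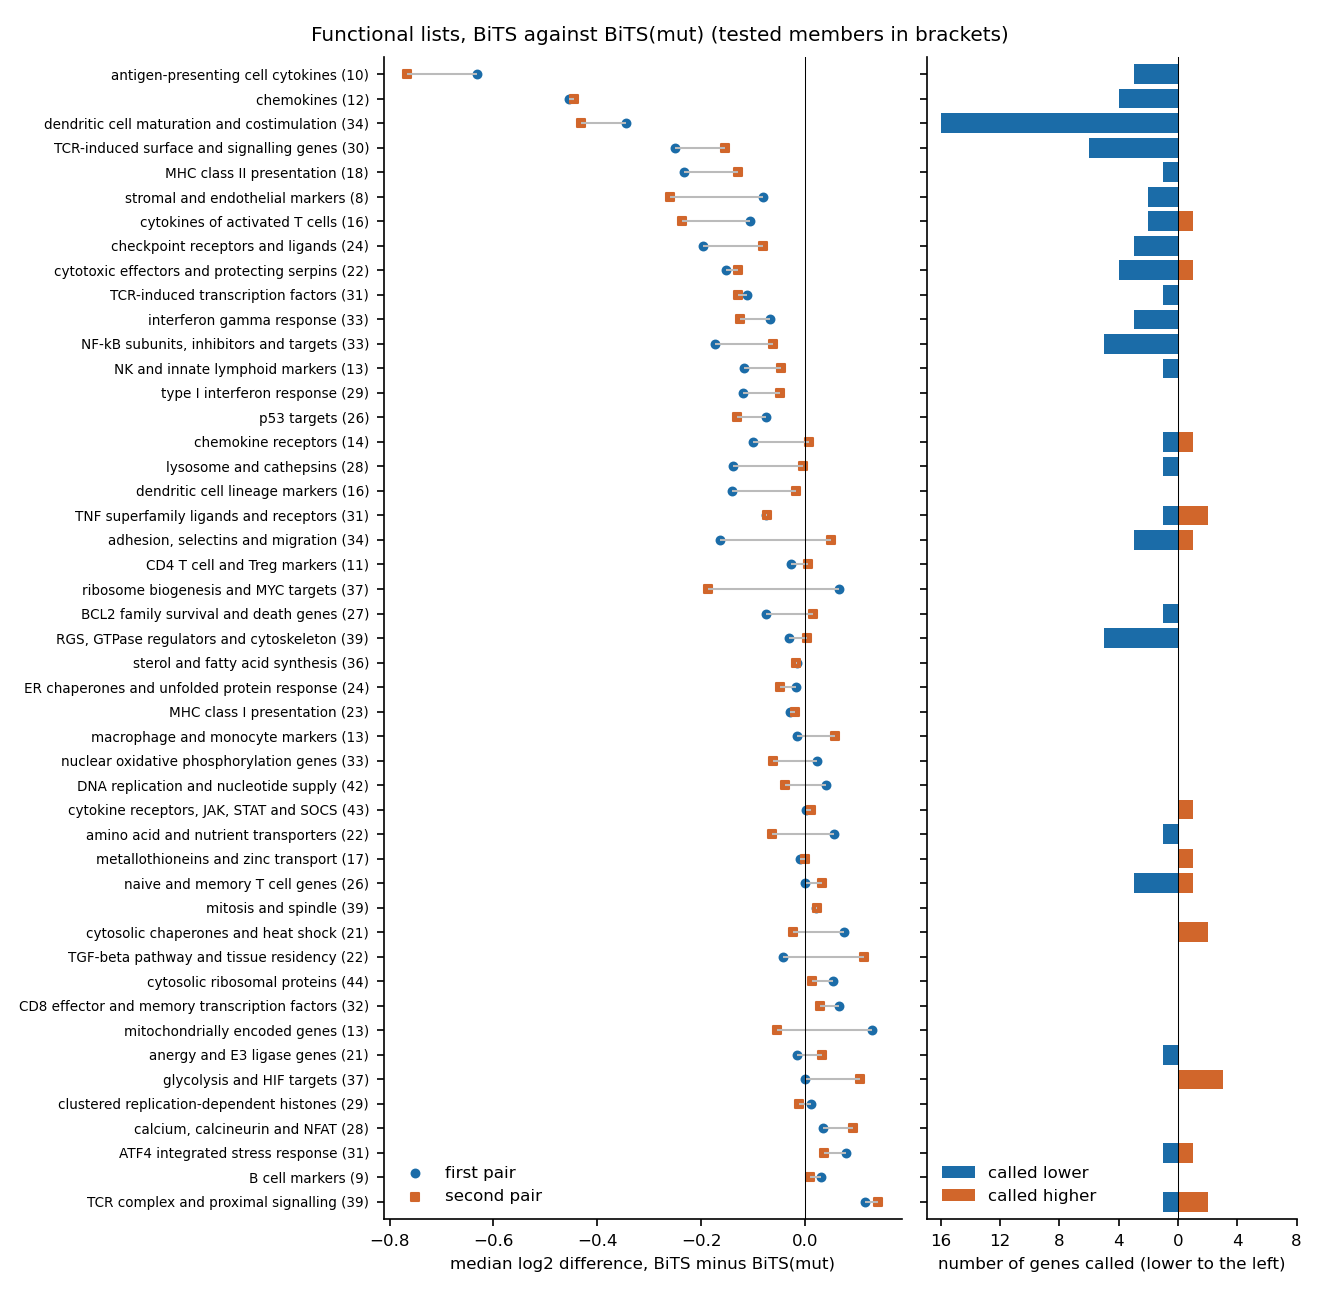
Left, median log2 difference, BiTS minus BiTS(mut), of each list with at least 5 tested members, in the first pair (blue circles) and the second (orange squares). Right, number of genes called lower (blue, to the left) and higher (orange, to the right); dendritic cell maturation has 16 called lower and the TCR complex 2 higher and 1 lower.

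Of the 136 called genes 75 stood in none of the lists. Among those that rose, Tnfrsf8, which stands in the TNF superfamily list and encodes the activation receptor CD30, was at 31.6 and 64.9 CPM in BiTS, 15.99 and 41.02 CPM in BiTS(mut) and 17.5 and 31.2 CPM in isotype (chromosome 4, 145267137 to 145315164). It rose by 0.80 ± 0.12 on the log2 scale (adjusted p = 1.98e-05 by edgeR's quasi-likelihood test), in each set BiTS was the highest library, and its call was lost without BiTS(mut) replicate 1 (0.63). Endou, an endoribonuclease of lymphocytes, was at 7.85 and 8.06 CPM in BiTS, 4.22 and 2.22 CPM in BiTS(mut) and 4.64 and 2.39 CPM in isotype (1.31 ± 0.26). Arhgef18, a guanine nucleotide exchange factor, was at 39.03 and 43.1 CPM in BiTS, 25.2 and 25.9 CPM in BiTS(mut) and 25.5 and 23.4 CPM in isotype (0.68 ± 0.12), and Rasgrp2, an exchange factor for Rap1, at 46.6 and 77.4 CPM in BiTS, 30.2 and 52.1 CPM in BiTS(mut) and 33.1 and 43.7 CPM in isotype (0.59 ± 0.10). For both, each BiTS library stood above the other libraries of its set. Other genes that rose were Pik3cd (0.36 ± 0.08), the delta catalytic chain of PI3-kinase, Sos1 (0.41 ± 0.10), a Ras exchange factor, Rasal3 (0.33 ± 0.08), a Ras GTPase-activating protein, and Hjurp (0.44 ± 0.08), the chaperone that loads the centromeric histone. The call was lost for Rasgrp2 without BiTS replicate 2 or BiTS(mut) replicate 1 (0.50 to 0.53). Endou lost it without BiTS replicate 2 or BiTS(mut) replicate 2 (0.89 to 1.07). Arhgef18 was no longer called without either BiTS(mut) library (0.68 to 0.69). Pik3cd and Hjurp lost the call without BiTS replicate 2 or either BiTS(mut) library (0.28 to 0.48). Sos1 and Rasal3 were not called without each of the 4 compared libraries in turn (0.25 to 0.48). By DESeq2 with the replicate block Sos1 and Rasal3 were not called, and Endou had no adjusted p. Rasal3 also lost the call with scaling by totals and with the 5 CPM filter.

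Secreted and receptor genes stood among those that fell outside the immune lists. Slc15a3, a lysosomal transporter of peptides and histidine, was at 23.03 and 12.7 CPM in BiTS, 42.5 and 21.5 CPM in BiTS(mut) and 40.4 and 19.01 CPM in isotype (-0.83 ± 0.13). Penk, the precursor of enkephalins, and Oprd1, the delta opioid receptor that enkephalins bind, were both low and fell (-1.67 ± 0.44 and -1.58 ± 0.38): Penk was at 0.889 and 0.664 CPM in BiTS, 2.27 and 2.80 CPM in BiTS(mut) and 1.99 and 1.47 CPM in isotype, and Oprd1 at 1.48 and 0.664 CPM in BiTS, 3.77 and 2.80 CPM in BiTS(mut) and 2.65 and 2.66 CPM in isotype. Inhba, the activin A chain (-1.52 ± 0.34), Lum, a matrix proteoglycan (-1.74 ± 0.31), Crabp2, a carrier of retinoic acid (-1.52 ± 0.32), Slc13a3, a dicarboxylate transporter (-1.85 ± 0.35), and Idi2, an isopentenyl diphosphate isomerase (-2.44 ± 0.42), were below 10 CPM in every library. The widest fitted decrease belonged to Gm23849, with 1 and 1 counts in BiTS against 19 and 8 in BiTS(mut), too few for a stable fold.

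Better measured genes of this kind had smaller decreases. They included Axl, a receptor for apoptotic cell bridging ligands (-0.41 ± 0.10), Mfge8, a bridging protein of the same uptake path (-0.32 ± 0.08), Ly75, the endocytic receptor DEC-205 of dendritic cells (-0.33 ± 0.09), Procr, the protein C receptor (-0.55 ± 0.11), and Sema7a, a semaphorin (-0.41 ± 0.09). Adamts14, a procollagen protease, lies 24397 bases from Prf1 and was at 64.2 and 126 CPM in BiTS, 96.8 and 153 CPM in BiTS(mut) and 102 and 135 CPM in isotype (-0.42 ± 0.09). Calls of genes named here were lost for Lum without BiTS(mut) replicate 1 (-1.46). Slc13a3 and Idi2 lost it without BiTS replicate 1 or BiTS(mut) replicate 1 (-2.11 to -1.42). Crabp2, Axl, Mfge8 and Adamts14 were no longer called without BiTS replicate 1 or either BiTS(mut) library (-1.56 to -0.18). Oprd1, Inhba, Procr and Sema7a lost the call without BiTS replicate 2 or either BiTS(mut) library (-1.73 to -0.33). Penk, Gm23849 and Ly75 were not called without each of the 4 compared libraries in turn (-3.82 to -0.22). Single libraries moved Idi2 to -1.42 without BiTS replicate 1, Mfge8 to -0.18 without BiTS replicate 1, Ly75 to -0.22 without BiTS replicate 1, Adamts14 to -0.21 without BiTS replicate 1 and Adamts14 to -0.65 without BiTS replicate 2. With DESeq2 and the replicate block Axl, Mfge8, Ly75, Procr and Adamts14 were not called, and Penk, Oprd1, Inhba, Lum, Crabp2, Slc13a3, Idi2 and Gm23849 had no adjusted p. Penk also lost the call with scaling by totals, and Mfge8 and Ly75 with the 5 CPM filter.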

How the data were processed

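RNA from OT-I T cell cultures was measured in 6 libraries, 2 each of BiTS, BiTS(mut) and isotype. The authors deposited 1 table of raw read counts per gene for each library. The submitters' processing notes name mm10 and DESeq2. Which aligner, counter and annotation were used, and whether counting used strand, is not given in the sources used here. Reads of exons that overlap on opposite strands cannot be told apart, and 36 called genes have such an overlap.

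Each table listed 49671 genes, and its 92 ERCC spike-in transcripts were left out. Symbols came from GENCODE M21 for 49412 identifiers, and promoter sequences from RefSeq on GRCm38. After TMM scaling and filterByExpr, counts of all 6 libraries entered edgeR's two-sided quasi-likelihood test, with 1 coefficient per group and a block for the pair. Versions were R 4.3.3, edgeR 4.0.16 and limma 3.58.1. A gene was called at a Benjamini-Hochberg adjusted p under 0.05 over 13996 genes. The spread of a gene rested on 2 residual degrees of freedom and on 45.95 borrowed from all genes, so a small p says little about how well its own libraries repeat. CPM are TMM-scaled, except for the sums and levels of cell type markers, which are divided by total gene counts. Changes within a pair are log2 differences of CPM with a prior of 2 counts. Standard errors follow ±, with 2 libraries per group.

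The pairing comes from the title numbers (2 with 3, 5 with 6), and the labels do not say what a number stands for. Deviations from the group means correlated at 0.74 between BiTS and BiTS(mut) of a pair, and at 0.663 and 0.728 with the isotype library numbered in the same run. No other correlation is distinct with 2 libraries per group. Chi-square over genes, divided by its degrees of freedom, was 4.31 and 4.07 between BiTS and BiTS(mut) within a pair and 31.8 and 36.8 across pairs. A count of 3, the limit that a count of 0 allows, equals 0.197 to 0.277 CPM, and limits and intervals cover counting error only.

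The 49 gene lists, the comparison and the naming rule were chosen with earlier results of these data known. By the rule any called gene may be named. Values of every library may be given for the 15 largest increases and decreases with a mean of at least 5 CPM in the higher group, up to 4 called genes per list, and a fixed set of genes, and some are left out. Values of every library are also given for other called genes, chosen after their values were seen: Cd86, Nfkb2, Ccnd2, Penk, Oprd1 and Adamts14. Some called genes are not reported here. Alternatives were fits without the block, DESeq2 1.42.0, limma-voom, scaling by RLE, by totals or by spike-ins, no filter, a filter at 5 CPM in 2 libraries, only the 4 compared libraries, and leaving out each library. A fit without 6 genes around CT010467.1 and a fit with neither filter nor block were added after seeing the data. The steps were tested on simulated counts.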

Additional observations from a re-analysis of the deposited data

How the results depend on the processing

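The number of genes called, BiTS against BiTS(mut), was 136. It was 0 with no replicate block, with all 6 or only the 4 compared libraries. It was 51 with DESeq2 and the replicate block (all 51 among the 136; of the other 85, 16 had no adjusted p), 0 with DESeq2 and no replicate block and 0 with spike-in scaling. It was 442 with only the 4 compared libraries and the block (135 of the 136 among them), and 3 with neither filter nor block, an alternative added after seeing the data. Leaving out 1 library gave 25 to 435 genes, with 25 and 28 without BiTS(mut) replicates 1 and 2, 100 and 65 without BiTS replicates 1 and 2, and 361 and 435 without isotype replicates 1 and 4. A count with 1 library of an arm assumes that it varies like the others. The other alternatives gave 102 to 170, among them 140 without the 6 genes around CT010467.1. Of 67 called genes of the naming rule 0 changed sign under any alternative, and 11 kept the call in all 13 paired alternatives other than spike-in scaling. Their log2 fold changes ranged over these from 0.82 to 1.15 for Ctla2a, -1.99 to -1.25 for Il23a, -1.49 to -1.18 for Ifng, -1.60 to -1.03 for Il3, -1.40 to -0.72 for Selp, -0.90 to -0.73 for Slc15a3, -1.08 to -0.64 for Cd200, -0.81 to -0.55 for Ccl22, -0.96 to -0.61 for Prf1, -0.66 to -0.59 for Cd83 and -0.74 to -0.47 for Marcksl1.

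Sign changes fell on genes that were not called. Cd69 was at -0.0048 and -0.0056 with no replicate block (6 and 4 libraries), -0.0011 and -0.0104 with DESeq2 with and without it, -0.0009 with RLE factors, -0.0104 with library totals, -0.0117 with no filter and -0.0208 with neither filter nor block. With spike-in scaling Nr4a1 was at 0.1028, Irf4 at 0.0014, Tbx21 at 0.1371, Lag3 at 0.0981 and Tnfrsf9 at 0.0342. Leaving out 1 library at a time gave -0.1203 to 0.1405 for Cd69, -0.0382 to 0.131 for Myc, -1.1059 to 0.0314 for Il2, -0.4212 to 0.3195 for Tbx21 and -0.2675 to 0.0168 for Tnfrsf9. Each called gene had a log2 fold change of at least 3.75 times its standard error, and the median standard error was 0.574 under 1 CPM and 0.371 at 1 to 5 CPM.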
